A study of Mus musculus with 18 samples.

Results

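Polycomb proteins keep developmental genes silent. They work in a pair of complexes: PRC2 methylates histone H3 at lysine 27, and PRC1 ubiquitinates histone H2A and compacts chromatin. In pluripotent stem cells both complexes sit on the promoters of developmental regulators. The RNA levels of 10 Polycomb genes were followed through chemical reprogramming of mouse fibroblasts. The genes were taken by name: the PRC2 methyltransferases Ezh1 and Ezh2, the PRC2 core subunits Eed and Suz12, the PRC2 accessory subunits Jarid2, Mtf2 and Phf19, the PRC1 ubiquitin ligase Rnf2 (the protein RING1B), and the PRC1 chromodomain subunits Cbx2 and Cbx7. All 10 were found among the 55401 genes of each file, and all 10 passed the filter on low values that left 16439 genes for testing (at least 1 FPKM in at least 2 libraries).

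All 10 are protein-coding genes, placed here on build GRCm38 (mm10). The enzymes lie apart, Ezh2 (ENSMUSG00000029687) at chr6:47530139-47595341 on the minus strand and Ezh1 (ENSMUSG00000006920) at chr11:101191115-101226463 on the minus strand. Of the PRC2 core and accessory genes, the first is Eed (ENSMUSG00000030619) at chr7:89954654-89980983 on the minus strand. The others are Suz12 (ENSMUSG00000017548) at chr11:79993106-80034123 on the plus strand, Jarid2 (ENSMUSG00000038518) at chr13:44729474-44921643 on the plus strand, Mtf2 (ENSMUSG00000029267) at chr5:108065674-108109004 on the plus strand and Phf19 (ENSMUSG00000026873) at chr2:34893757-34914026 on the minus strand. The PRC1 genes are Rnf2 (ENSMUSG00000026484) at chr1:151458004-151500955 on the minus strand, Cbx2 (ENSMUSG00000025577) at chr11:119022962-119031270 on the plus strand and Cbx7 (ENSMUSG00000053411) at chr15:79915807-79971119 on the minus strand.

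RNA was sequenced from 18 libraries in 9 groups of 2. Cells were sampled on days 2, 4, 6, 8, 10 and 12 in reprogramming medium (D2 to D12), as induced pluripotent stem cells (riPSC), as untreated mouse embryonic fibroblasts (D0, MEF) and as the embryonic stem cell line R1 (mESC). The D0 to riPSC samples share 1 source, fibroblasts of E13.5 embryos of the 129XOG2 cross (OG2 denotes a reporter strain), which were used at low passage. The riPSC and R1 cells were kept on feeder cells in a serum-free medium with LIF, CHIR99021 (a GSK3 inhibitor) and PD0325901 (a MEK inhibitor), whereas the fibroblasts grew in serum. The labels name no compound of the reprogramming medium. They do not say whether the 2 libraries of a group came from separate cultures, so the spread between libraries may be technical. In the main fit, p-values and SE rest on 1 spread per gene pooled over all 9 groups, not on the groups compared. The median log2 difference between the 2 libraries was 0.28 at D0, 0.243 at D2, 0.0897 at D8 and 0.0924 at D10. The pooled spread does not follow these differences. These are bulk samples, in which fewer cells of a type and less RNA per cell cannot be told apart.

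Libraries of 3 groups bear on the values below. The 2 deposited columns of D2 were not independent: their values had more decimals than those of any other library, the sum of both columns fell back onto 6 decimals in 99.8% of 15247 genes, and the second was never below 1/5 of the first in 20906 genes, at exactly that share in 2016. How they were made was not worked out, so D2 levels are given as 2 columns with no error, and fold changes at D2 with no SE. Calls in comparisons with D2 count both columns as samples. Both D0 libraries were short of signal in long genes, with a median log2 fold change of 1.23 in riPSC against D0 for protein-coding genes with over 8000 exonic bases and 0 for those with over 1000 and up to 2000. Mitochondrial genes made up 62.1% to 62.3% of the FPKM sum at D12, 27% to 28.1% in riPSC and 0.437% to 1.89% at D0. Estimated depth was 33.0 to 41.6 M reads in the 16 libraries other than D2, from a search within a preset range that bounds the estimate.

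Marker genes placed the labels as follows. The summed FPKM of 12 pluripotency markers was 5074 and 5380 in riPSC and 4321 and 4811 in mESC, against 1.21 and 1.88 at D0, where 11 and 9 of them were listed at 0. At D12 this sum was 1531 and 1565, but the markers differed. Pou5f1 averaged 543 FPKM at D12 and 940 FPKM in riPSC, Nanog 1.76 and 274, and Sox2 3.83 and 246. In the limma fit described below, 10 of the 12 were lower at D12 than in riPSC and 0 higher. Of all genes, 19.8% were lower there. The 12 markers of extraembryonic endoderm, a lineage of the early embryo, summed to 5292 and 5318 FPKM at D12, against 205 and 221 in riPSC. At D0 this list summed to 536 and 723 FPKM. Fibroblast markers summed to 135 to 222 FPKM in the feeder-grown riPSC and mESC, against 850 and 1319 FPKM at D0. Their sum at D12, 1016 and 1034 FPKM, lay between the D0 values, but the genes in it differed. Thy1, Pdgfrb, Postn, Col1a1, Col1a2, Col5a1 and Col6a1 were lower on average at D12 than at D0. Pdgfra, Fbln1, Dcn, Lum and Col3a1 were higher. Thy1 averaged 160 FPKM at D0 and 6.90 FPKM at D12, and Pdgfra 2.54 and 83.0. Pdgfra is also 1 of the extraembryonic endoderm markers. Striated muscle markers summed to 44.4 to 55.5 FPKM in the D2 columns, against 308 to 420 FPKM at D0, and myeloid markers to 19.4 to 20.3 FPKM in the D2 columns, against 119 to 132 FPKM at D0.

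Levels of 8 of the 10 genes were highest, by group mean, in riPSC or mESC. The share of all genes highest there was not worked out, and 40.1% of all genes were called higher in riPSC against D0. The exceptions among the 10 were Ezh1, highest at D10, and Phf19, highest at D0. The riPSC libraries overlapped those of D2 and D4 for Jarid2, of D4 for Cbx2, of D8 for Rnf2 and of D0 and D2 for Phf19. The genes did not move as a block on the way: Ezh2 and Cbx2 dipped at D6, Jarid2 peaked early and was lowest after D0 at D10, Eed was higher at each sampled day than at the one before, and Cbx7 stayed far below its pluripotent level through D12. The plot of FPKM by library shows the 10 courses.

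**Figure D1:**
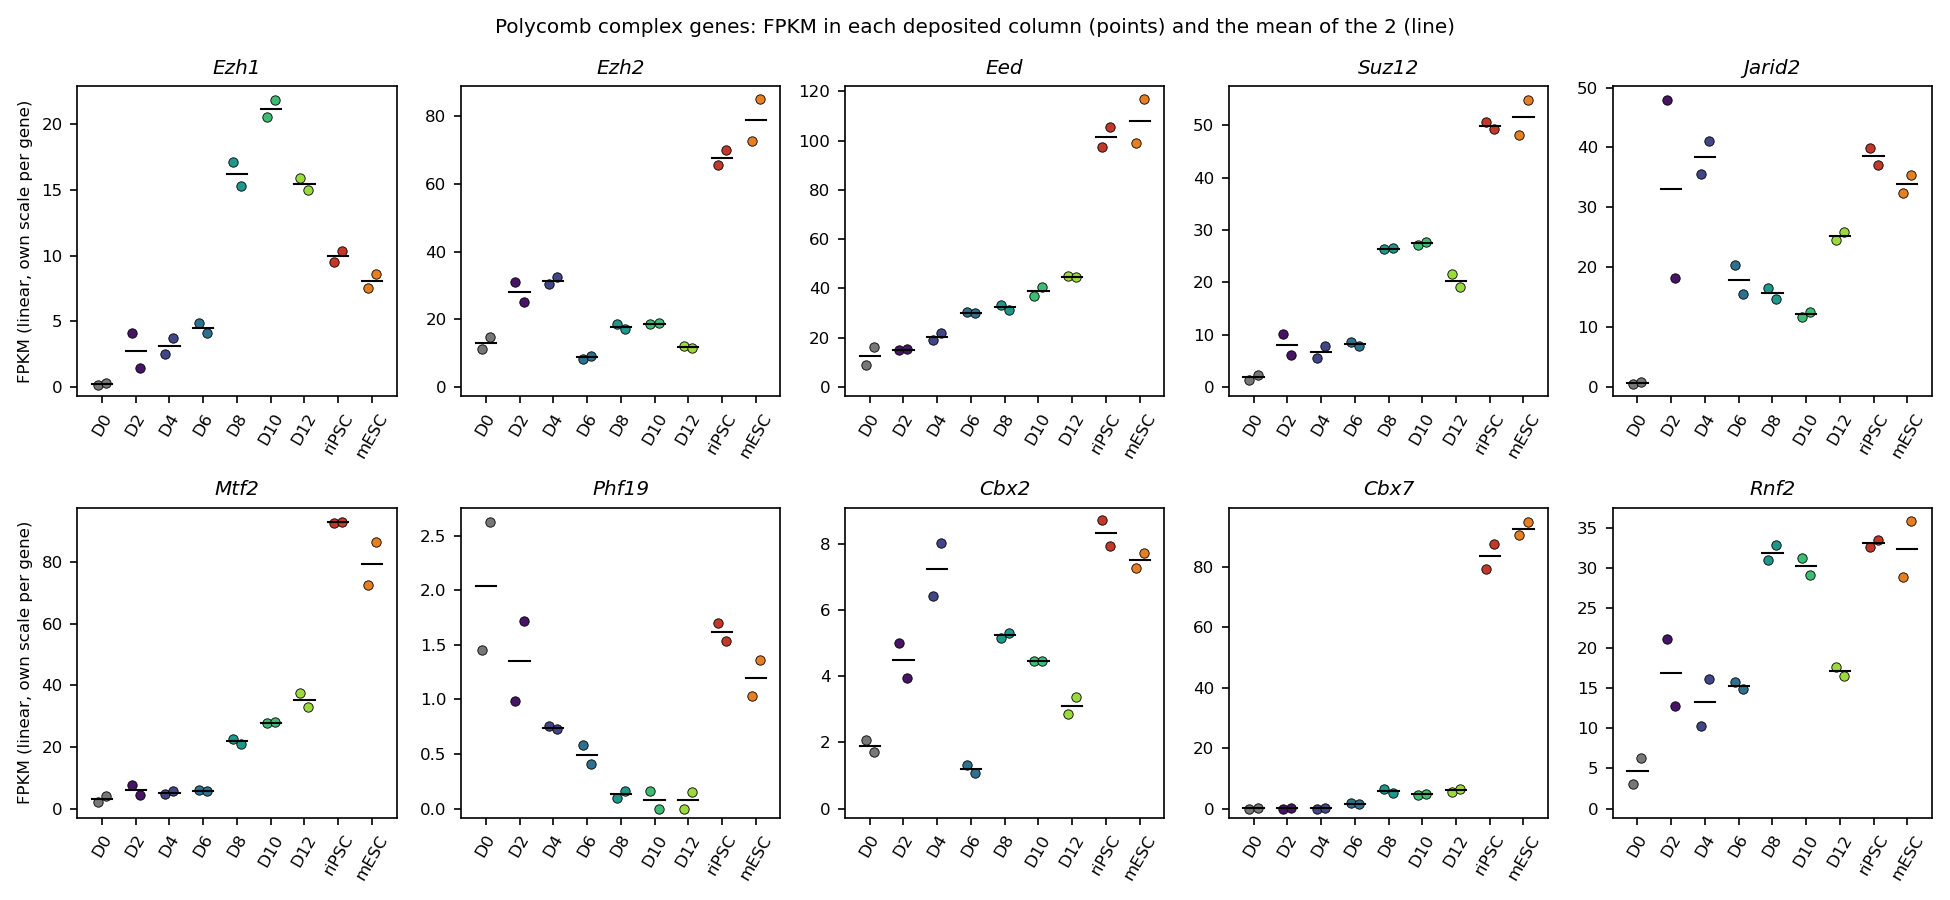
FPKM of each Polycomb gene (y axis, linear, own scale per gene) in the 18 deposited columns (points, 2 per group) with their mean (line), by group (x axis). Ezh1 peaks at D10 with 20.6 and 21.8 FPKM, and Cbx7 reaches 79.4 to 94.9 FPKM in riPSC and mESC after 6.62 FPKM at most through D12.

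Ezh2, the main methyltransferase of PRC2 in dividing cells, had 11.2 and 14.9 FPKM at D0, 31.1 and 25.0 in the D2 columns, 30.3 and 32.4 at D4, 8.42 and 9.22 at D6, 18.5 and 17.1 at D8, 18.5 and 19.0 at D10, 12.09 and 11.40 at D12, 65.5 and 70.0 in riPSC and 72.8 and 85.2 in mESC. The D6 libraries were the lowest of all, and the D2 and D4 columns were the highest before riPSC. Ezh2 fell at D6 against D4 by a log2 fold change of -1.72 ± 0.14 (SE, adjusted p = 1.42e-06). Every fold change is a difference of mean log2(FPKM + 1), adjusted p-values are from limma with Benjamini-Hochberg adjustment over all genes tested, and a gene is called, or said to rise or fall, at an adjusted p under 0.05 and at least 2-fold. At D8 against D6 Ezh2 was 0.94 ± 0.14 higher (adjusted p = 0.000115), just short of 2-fold.

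Ezh1, a paralogue with weaker methyltransferase activity that is typically expressed in non-dividing and adult cells, had 0.159 and 0.342 FPKM at D0, 4.08 and 1.43 in the D2 columns, 2.52 and 3.76 at D4, 4.84 and 4.11 at D6, 17.2 and 15.3 at D8, 20.6 and 21.8 at D10, 15.9 and 15.0 at D12, 9.55 and 10.3 in riPSC and 7.53 and 8.63 in mESC. All 6 libraries of D8 to D12 were above all 12 others. Ezh1 rose at D8 against D6 by 1.66 ± 0.26 (SE, adjusted p = 0.000159). In order of level, D8 and D12 overlapped, as did D4 and D2, and the other neighbouring groups did not.

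The balance between both enzymes therefore shifted during reprogramming. Ezh1 made up 1.40% and 2.24% of the summed FPKM of Ezh1 and Ezh2 at D0, 7.67% and 10.4% at D4, 36.5% and 30.8% at D6, 48.1% and 47.3% at D8, 52.6% and 53.5% at D10 and 56.8% in both libraries at D12. It was 12.7% and 12.9% in riPSC and 9.37% and 9.20% in mESC. FPKM is a level per length, so levels of 2 genes can be set side by side where signal does not depend on length. At D0 it did, and all D0 shares given here and below carry that limit. Ezh1 has 7440 exonic bases and Ezh2 6678. In D10 and D12 alone Ezh1 was above Ezh2 in both libraries.

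**Figure D2:**
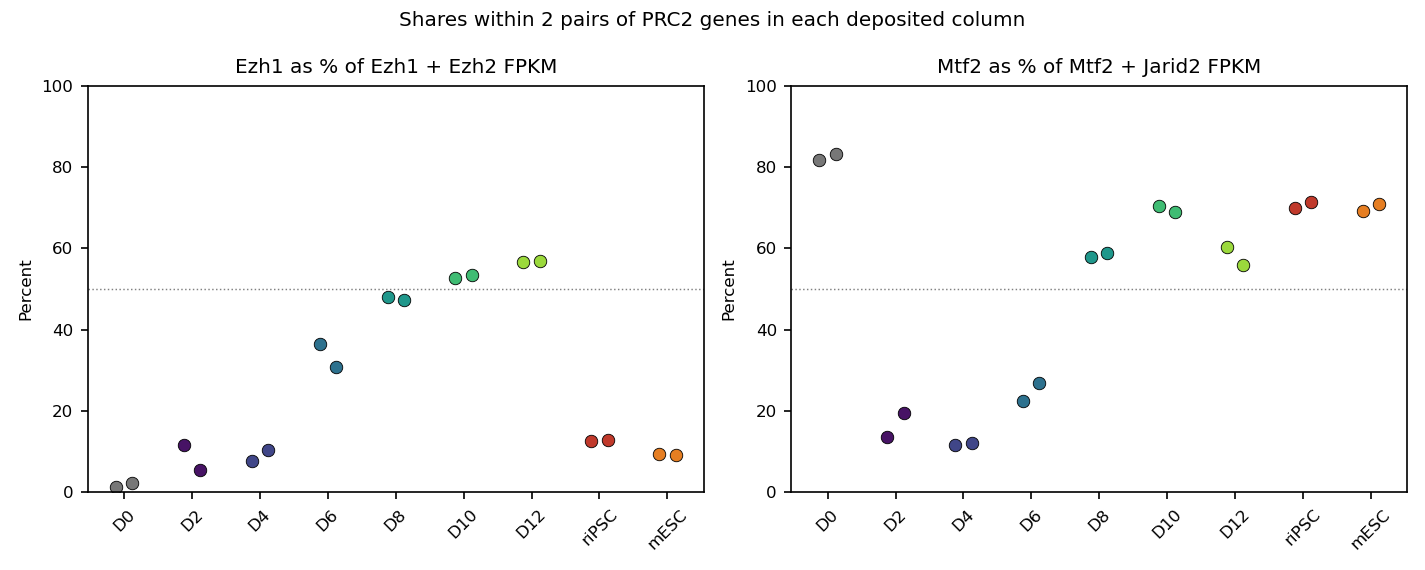
Share of Ezh1 in the summed FPKM of Ezh1 and Ezh2 (left) and of Mtf2 in that of Mtf2 and Jarid2 (right), in percent (y axis), for each deposited column (points) by group (x axis), with a dotted line at equal levels. Ezh1 reaches 56.8% at D12 and is at 12.7% and 12.9% in riPSC, and Mtf2 stands between 11.5% and 26.9% from D2 to D6 and at 56.0% or more in the other groups.

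Ezh2 and DNA replication and cell cycle genes were both lower at D6 against D4 and at D12 against riPSC. Ezh2 and the summed level of these genes did not run in parallel throughout. Of 18 such genes, 16 fell at D6 against D4, where 6.86% of all genes fell, and 15 rose at D8 against D6, where 15.1% of all genes rose. In D12 against riPSC 16 were lower, against 19.8% of all genes. Their summed FPKM was 550 and 710 at D0, 627 and 690 in the D2 columns, 633 and 731 at D4, 235 in both libraries at D6, 755 and 746 at D8, 798 and 800.0 at D10, 434 and 416 at D12 and 1956 and 2069 in riPSC. At D2 against D0, where Ezh2 was called higher (1.05), 1 of the 18 was called higher, against 19.5% of all genes, with a median of 0.20. That Ezh2 call was lost with the length trend removed, under quantile normalization and in a fit of the D0 and D2 columns alone. At D8 and D10 the sum was above both D4 values, whereas Ezh2 had 17.1 to 19.0 FPKM at D8 and D10 and 30.3 and 32.4 FPKM at D4. The list was split here: Pcna, Birc5, Ccne1, Tyms and Cdk1 were, like Ezh2, lower on average at D8 and D10 than at D4. The rest of the list was higher. Pcna, the sliding clamp of the replication fork, was the gene whose course over the 9 group means was most like that of Ezh2 (Pearson r 0.98 on the log2 scale, among 15331 genes), and Ppp1r8 was also among the 3 closest. For Ezh1 the closest courses were those of Ap1ar, Phactr4 and Fastkd3. Whether the share of cycling cells set the level of Ezh2 was not tested.

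**Figure D3:**
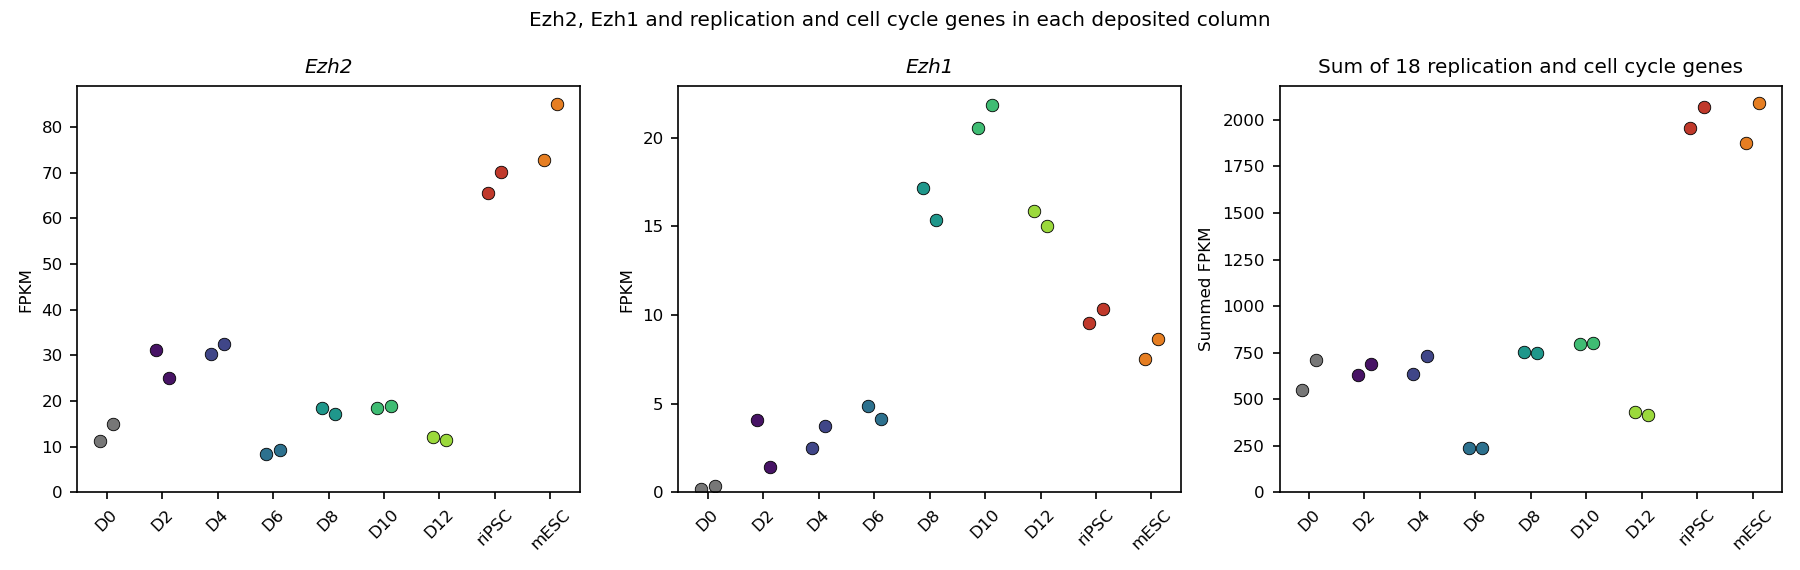
FPKM of Ezh2 and of Ezh1 and summed FPKM of 18 replication and cell cycle genes (y axes, linear) in each deposited column (points) by group (x axis). Ezh2 and the cell cycle sum are both lowest at D6 (8.42 and 9.22 FPKM, sum 235 in both libraries), where Ezh1 has 4.84 and 4.11 FPKM.

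Promoter windows were searched for words bound by E2F factors, which drive replication genes. Between both enzymes, the Ezh2 window held an E2F word and the Ezh1 window did not. Whether E2F factors set the level of either gene was not tested. Windows run from 250 bases before to 50 bases after the gene's start (RefSeq, build GRCm38.p6), and capitals mark the E2F word. The words searched were TTTCCCGC, TTTGGCGC, TTTCGCGC and TTTGCCGC on both strands. Of the 9 members with a window (Cbx2 was not matched), 3 held a word, as did 2.60% of 27025 genes. Besides Ezh2 these were Suz12 and Phf19, whose RNA courses differed from that of Ezh2 and from each other. Every word searched holds a CpG. The windows of Ezh2, Suz12 and Phf19 hold 31, 41 and 38 CpG, against a median of 7 over all windows. The 2.60% is therefore not the share for windows as rich in CpG. A match is a description of the letters, not of binding.
Ezh2, chr6:47594981-47595280, minus strand: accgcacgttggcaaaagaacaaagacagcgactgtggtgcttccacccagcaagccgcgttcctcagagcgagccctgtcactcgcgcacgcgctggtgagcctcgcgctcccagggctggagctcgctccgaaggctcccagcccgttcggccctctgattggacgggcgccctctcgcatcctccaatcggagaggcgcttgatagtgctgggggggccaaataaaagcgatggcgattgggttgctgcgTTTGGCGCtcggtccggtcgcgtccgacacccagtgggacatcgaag
Ezh1, chr11:101226414-101226713, minus strand: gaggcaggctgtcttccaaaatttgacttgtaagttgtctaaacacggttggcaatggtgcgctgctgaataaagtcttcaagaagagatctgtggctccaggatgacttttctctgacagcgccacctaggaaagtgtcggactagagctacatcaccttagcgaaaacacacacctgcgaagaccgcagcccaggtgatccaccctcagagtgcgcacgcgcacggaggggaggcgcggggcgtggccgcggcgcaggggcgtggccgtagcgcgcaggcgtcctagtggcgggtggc
Suz12, chr11:79992856-79993155, plus strand: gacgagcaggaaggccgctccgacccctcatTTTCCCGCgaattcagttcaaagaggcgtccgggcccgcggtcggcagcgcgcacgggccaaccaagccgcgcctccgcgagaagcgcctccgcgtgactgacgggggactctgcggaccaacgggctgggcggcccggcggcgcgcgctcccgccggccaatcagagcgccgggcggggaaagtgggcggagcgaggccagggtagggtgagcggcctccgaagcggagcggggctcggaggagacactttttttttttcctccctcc
Phf19, chr2:34913927-34914226, minus strand: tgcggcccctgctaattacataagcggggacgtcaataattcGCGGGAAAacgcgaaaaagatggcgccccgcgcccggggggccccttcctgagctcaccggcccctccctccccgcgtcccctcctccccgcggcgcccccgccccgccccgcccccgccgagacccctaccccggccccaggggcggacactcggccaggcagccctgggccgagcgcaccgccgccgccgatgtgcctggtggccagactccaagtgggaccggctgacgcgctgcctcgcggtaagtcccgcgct

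The core subunits followed a different course from Ezh2. Suz12, which holds the PRC2 core together, had 1.42 and 2.38 FPKM at D0, 10.0 and 6.18 in the D2 columns, 5.46 and 7.92 at D4, 8.66 and 7.90 at D6, 26.4 and 26.5 at D8, 27.2 and 27.8 at D10, 21.5 and 19.1 at D12, 50.5 and 49.3 in riPSC and 48.2 and 54.8 in mESC. It stood at 3 plateaus that did not overlap: D2 to D6, D8 to D12, and the pluripotent lines. The step at D8 against D6 was a rise of 1.57 ± 0.21 (SE, adjusted p = 4.29e-05).

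Eed, the subunit that reads trimethylated lysine 27 and stimulates the enzyme, had 8.81 and 16.4 FPKM at D0, 14.9 and 15.4 in the D2 columns, 18.9 and 21.8 at D4, 30.3 and 30.1 at D6, 33.3 and 31.3 at D8, 37.1 and 40.6 at D10, 44.9 and 44.8 at D12, 97.3 and 106 in riPSC and 98.9 and 117 in mESC. Its group mean was higher on each sampled day than on the one before, but no single step was called. The largest, D6 against D4, was 0.55 ± 0.20 (SE, adjusted p = 0.0388) and under 2-fold. Eed was above both Ezh2 and Suz12 in every library from D6 on, and made up 67.6% and 70.1% of the summed FPKM of Eed and Suz12 at D12.

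Jarid2, which recruits PRC2 to its targets and is itself a substrate of it, had 0.445 and 0.839 FPKM at D0, 47.9 and 18.2 in the D2 columns, 35.6 and 41.1 at D4, 20.3 and 15.6 at D6, 16.5 and 14.7 at D8, 11.7 and 12.5 at D10, 24.6 and 25.9 at D12, 39.96 and 37.03 in riPSC and 32.4 and 35.3 in mESC. The D4 and riPSC libraries overlapped, and the D10 libraries were the lowest after D0. At D2 against D0 its log2 fold change was 4.23, called with all libraries in the fit but not in a fit of the D0 and D2 columns alone (limma adjusted p = 0.0992). Jarid2 has the most exonic bases of the 10 genes (9715), a length at which D0 was short of signal, and the value was 3.52 with the length trend removed. It fell at D6 against D4 by -1.06 ± 0.31 (SE, adjusted p = 0.0138). The fall at D6 was no longer called without the second D4 library (adjusted p = 0.0707) or without the second D6 library (adjusted p = 0.0953). At D12 against D10 Jarid2 was 1.00 ± 0.31 higher (adjusted p = 0.0253), a difference that lay just under 2-fold.

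Mtf2, the Polycomb-like subunit that links PRC2 to unmethylated CpG islands, had 2.00 and 4.21 FPKM at D0, 7.52 and 4.41 in the D2 columns, 4.62 and 5.70 at D4, 5.89 and 5.74 at D6, 22.7 and 21.1 at D8, 27.9 and 28.0 at D10, 37.4 and 32.9 at D12, 92.6 and 93.2 in riPSC and 72.6 and 86.5 in mESC. The libraries of D0 to D6 lay at 7.52 FPKM or less and those of D8 to D12 at 21.1 or more. Mtf2 rose at D8 against D6 by 1.75 ± 0.24 (SE, adjusted p = 5.14e-05).

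With Jarid2 and Mtf2 moving at different times, their shares crossed. Mtf2 made up 11.50% and 12.16% of their summed FPKM at D4, 22.5% and 26.9% at D6 and 57.9% and 58.9% at D8. The share was 69.9% and 71.6% in riPSC and 69.1% and 71.0% in mESC. The genes most like Mtf2 in course were Sall1, a zinc finger factor, Rinl and Shld2 (r 0.995 to 0.996), and those most like Jarid2 were Sbk1, Nf2 and Amacr (r 0.953 to 0.979).

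Phf19, another Polycomb-like subunit, ran the other way and was low everywhere. It had 1.45 and 2.63 FPKM at D0, 0.982 and 1.72 in the D2 columns, 0.758 and 0.724 at D4, 0.581 and 0.407 at D6, 0.0986 and 0.158 at D8, 0.162 and 0 at D10, 0 and 0.149 at D12, 1.70 and 1.53 in riPSC and 1.03 and 1.36 in mESC. Its mean decreased with each sampled day, though no step was called, and the 6 libraries of D8 to D12 were below all others. Among the 3 Polycomb-like genes (Phf1, Mtf2 and Phf19), Phf1 held 64.4% and 52.4% of the summed FPKM at D0 and 56.6% and 58.2% at D6, while Mtf2 held 89.4% and 89.1% at D8 and 93.7% and 93.5% in riPSC. Phf1 itself fell at D8 against D6 (2.50 FPKM at D8 and 8.50 FPKM at D6 on average, log2 fold change -1.44).

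In PRC1, Rnf2 had 3.00 and 6.25 FPKM at D0, 21.2 and 12.7 in the D2 columns, 10.3 and 16.2 at D4, 15.8 and 14.9 at D6, 30.9 and 32.9 at D8, 31.3 and 29.2 at D10, 17.7 and 16.6 at D12, 32.6 and 33.6 in riPSC and 28.9 and 35.9 in mESC. The D8, D10, riPSC and mESC libraries shared 1 level, between 28.9 and 35.9 FPKM, and the D2, D4, D6 and D12 libraries another, between 10.3 and 21.2. Rnf2 rose at D8 against D6 by 1.01 ± 0.28 (SE, adjusted p = 0.00777), a call that was lost when the second library of D6 (0.97) or of D8 (0.97) was left out. Its paralogue Ring1, the other ligase, rose at D12 against D10 by 1.04, and the share of Rnf2 in the summed FPKM of both was 56.3% and 53.4% at D12, against 85.2% and 83.2% in riPSC.

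Cbx2, a chromodomain subunit that compacts nucleosomes, had 2.06 and 1.72 FPKM at D0, 5.01 and 3.94 in the D2 columns, 6.43 and 8.04 at D4, 1.30 and 1.06 at D6, 5.16 and 5.31 at D8, 4.45 and 4.47 at D10, 2.85 and 3.36 at D12, 8.72 and 7.93 in riPSC and 7.28 and 7.73 in mESC. Like Ezh2 it was lowest at D6. It fell at D6 against D4 by -1.91 ± 0.13 (SE, adjusted p = 3.69e-07) and rose at D8 against D6 by 1.52 ± 0.13 (adjusted p = 9.57e-07). Ezh2 was the member whose course was nearest to that of Cbx2 (r 0.87 over 9 group means). The 3 genes most like Cbx2 were Dnaaf2 (r 0.9482), Gm49329 (0.9306) and Mad2l1, a spindle checkpoint gene (0.9275).

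Cbx7, the main chromodomain subunit of PRC1 in embryonic stem cells, was listed at 0 in 1 column each of D0, D2 and D4 and at 0.0834, 0.135 and 0.170 FPKM in the others. It had 1.84 and 1.42 FPKM at D6, 6.51 and 5.19 at D8, 4.46 and 4.84 at D10, 5.57 and 6.62 at D12, 79.4 and 87.5 in riPSC and 90.4 and 94.9 in mESC. It thus had 3 separate levels after D4, and the groups D8, D10 and D12 stayed within 4.46 to 6.62 FPKM. Cbx7 rose at D6 against D4 by 1.28 ± 0.14 (SE, adjusted p = 1.20e-05) and at D8 against D6 by 1.38 ± 0.14 (adjusted p = 3.26e-06), and was lower at D12 than in riPSC (log2 fold change -3.58 ± 0.14). Cbx7 shares 100 of its 6487 exonic bases with Apobec3 on the opposite strand, and the strand setting of the counting is not given in the sources used here. Apobec3 had 11.5 and 10.7 FPKM at D12, against 73.5 and 87.8 in riPSC. Eed shares 261 exonic bases with E230029C05Rik, Mtf2 395 with Tmed5 and Rnf2 158 with Trmt1l, also on the opposite strand.

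The make-up of the chromodomain family changed in the same interval. Over Cbx2, Cbx6, Cbx7 and Cbx8, Cbx7 held 31.1% and 35.9% of the summed FPKM at D12, against 78.7% and 80.6% in riPSC, and in mESC it held 81.1% and 81.0%. Cbx6 held 32.7% and 27.3% at D12, against 85.6% and 87.6% at D0. Cbx8 was 20.3% and 18.6% at D12, against 0.840% and 0.856% in riPSC, and was called higher (log2 fold change 1.26). The Polyhomeotic family, which joins PRC1 complexes into larger assemblies, changed likewise: Phc1 held 9.70% and 10.6% at D12, against 84.99% and 86.53% in riPSC, and Phc2 held 97.3% and 96.7% at D0. Phc1 averaged 4.104 FPKM at D12 and 89.3 FPKM in riPSC (log2 fold change -4.14).

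**Figure D4:**
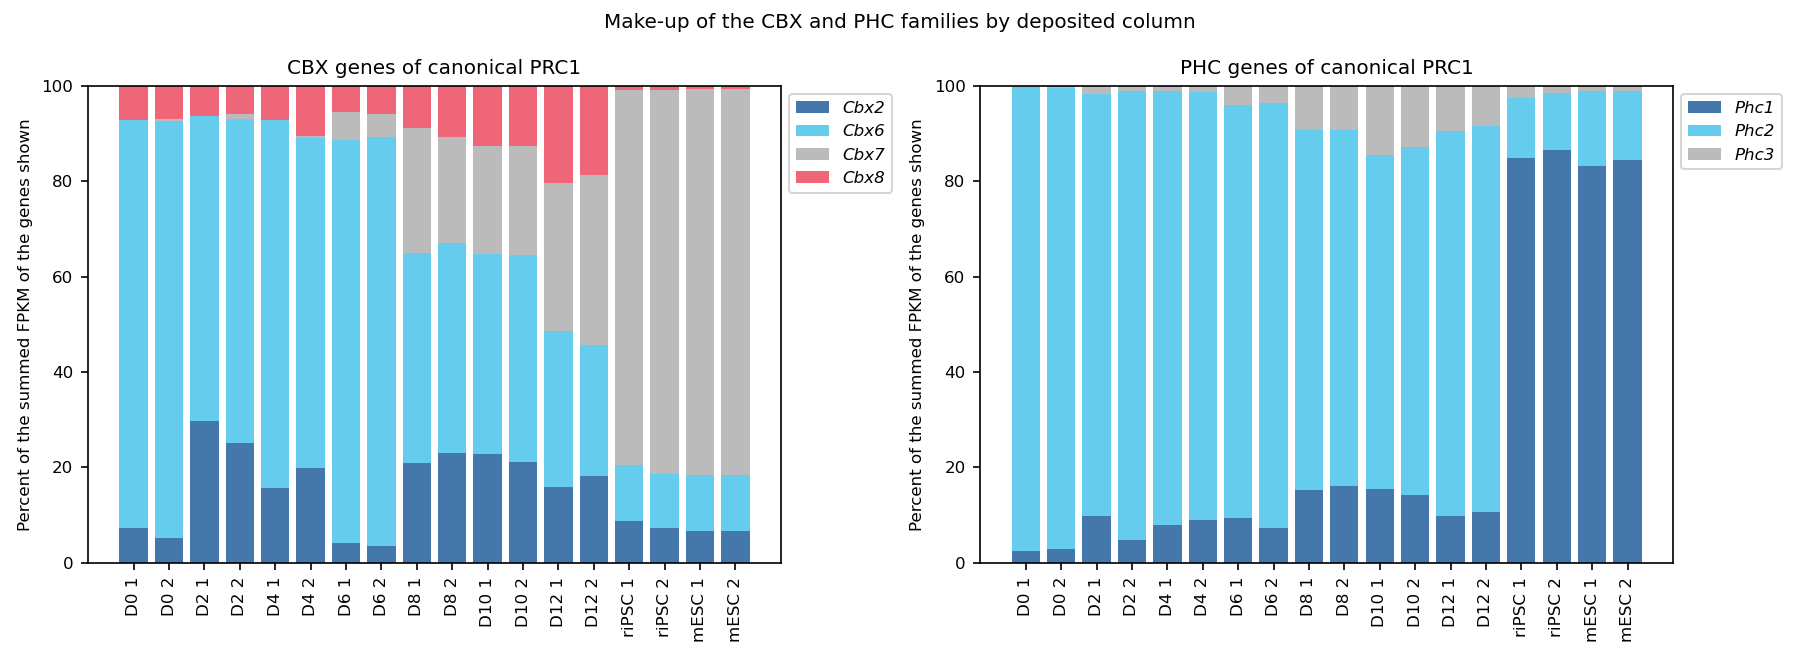
Percent of the summed FPKM (y axis) held by each of 4 CBX genes (left) and 3 PHC genes (right) of canonical PRC1 in the 18 deposited columns (x axis, group and replicate number). Cbx7 holds 78.7% and 80.6% in riPSC and Cbx6 85.6% and 87.6% at D0, and Phc1 holds 9.70% and 10.6% at D12 and 84.99% and 86.53% in riPSC.

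Counted by comparison, the 10 genes moved at D2, D6 and D8 and between D12 and riPSC. At D2 against D0, 5 were called higher and 0 lower (Ezh1, Ezh2, Suz12, Jarid2 and Rnf2), where 24.1% of all genes tested were called in either direction and 19.5% higher. The median log2 fold change was 0.98 for the 10 and 0.24 for all genes, but 0.45 for protein-coding genes with over 4000 and up to 8000 exonic bases, where 8 of the 10 lie, and 0.74 for those with over 8000. With the length trend removed 3 of the 5 stayed called (Suz12, Jarid2 and Rnf2). Under quantile normalization 2 of these 5 stayed called (Jarid2 and Rnf2), and without the first D2 column 3 did (Suz12, Jarid2 and Rnf2). In a fit of the 4 D0 and D2 columns alone no member was called (adjusted p 0.0992 to 0.163 for the 5). With the mean of the D2 columns entered as 1 sample, the same 5 were called.

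At D4 against D2, 0 of the 10 were called (limma; 2 had an unadjusted p under 0.05), where 5.66% of all genes were called higher and 4.48% lower, and the columns did not overlap in 3 of the 10, against 56.7% of all genes. At D6 against D4, 4 were called, Cbx7 higher and Ezh2, Jarid2 and Cbx2 lower, against 18.5% of all genes. At D8 against D6, 6 were called, all higher (Ezh1, Suz12, Mtf2, Cbx2, Cbx7 and Rnf2), against 26.4% of all genes in either direction and 15.1% higher, with a median of 1.19 for the 10 and 0.08 for all genes. In that interval the summed FPKM of extraembryonic endoderm markers was 2194 to 2320 at D8 and 1253 to 1254 at D6, of pluripotency markers 435 to 436 at D8 and 29.9 to 33.3 at D6, and of fibroblast markers 763 to 774 at D8 and 3157 to 3211 at D6. The part of these marker shifts in the result was not tested.

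No member was called between D8 and D10 or between D10 and D12. At D10 against D8, 0 were called (limma; 0 with an unadjusted p under 0.05), against 2.86% of all genes, with log2 fold changes between -0.34 and 0.37. At D12 against D10, 0 were called against 10.7% of all genes, although 5 had an unadjusted p under 0.05 and 4 an adjusted p under 0.05, all short of 2-fold. These 4 were Jarid2, which was higher (1.00), and Ezh2 (-0.63), Rnf2 (-0.78) and Cbx2 (-0.41). Jarid2 or Rnf2 passed both thresholds under 4 of the alternative settings. In the same interval 8 of the 18 cell cycle genes fell, against 4.68% of all genes.

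At D12 against riPSC, 7 of the 10 were lower and 0 higher (Ezh2, Eed, Suz12, Mtf2, Phf19, Cbx2 and Cbx7), against 36.5% of all genes in either direction and 19.8% lower. The differences ran from -3.58 ± 0.14 for Cbx7 and -2.43 ± 0.14 for Ezh2 (SE) to -1.16 ± 0.20 for Eed. The 3 not called were Ezh1 (0.59 ± 0.26), Jarid2 (-0.59 ± 0.31) and Rnf2 (-0.91 ± 0.28), and in all 10 genes the D12 and riPSC libraries did not overlap, as in 86.3% of all genes tested. The median was -1.22 for the 10 and -0.06 for all genes. Under median-of-ratios scaling Eed (-0.94) and Cbx2 (-0.99) were no longer called, and with mitochondrial genes left out of the sum Rnf2 was called too (-1.28).

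In riPSC against D0, 9 of the 10 rose and Phf19 did not (-0.19 ± 0.19), against 53.1% of all genes called in either direction and 40.1% higher. The rises were 6.34 ± 0.14 for Cbx7, 4.60 ± 0.31 for Jarid2, 4.57 ± 0.24 for Mtf2, 4.15 ± 0.21 for Suz12, 3.13 ± 0.26 for Ezh1, 2.97 ± 0.20 for Eed, 2.66 ± 0.28 for Rnf2, 2.30 ± 0.14 for Ezh2 and 1.69 ± 0.13 for Cbx2 (SE). The value of Cbx7 depends on the added 1 FPKM, since 1 D0 library was listed at 0. The median over all genes was 0.62, and the members have 3828 to 9715 exonic bases, lengths in which D0 was short of signal. With the length trend removed, 8 of the 9 were still called, Cbx2 was not (0.94), and Phf19 was called lower (-1.06).

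Between riPSC and mESC, 0 of the 10 were called (limma; 0 with an unadjusted p under 0.05), against 3.04% of all genes. The log2 differences lay between -0.21 ± 0.14 for Ezh2 and 0.27 ± 0.26 for Ezh1 (SE). In 7 of the 10 genes the 2 pairs of libraries did not overlap, as in 59.5% of all genes tested. Cbx7 was one of the 7, with 79.4 and 87.5 FPKM in riPSC and 90.4 and 94.9 in mESC.

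**Figure D5:**
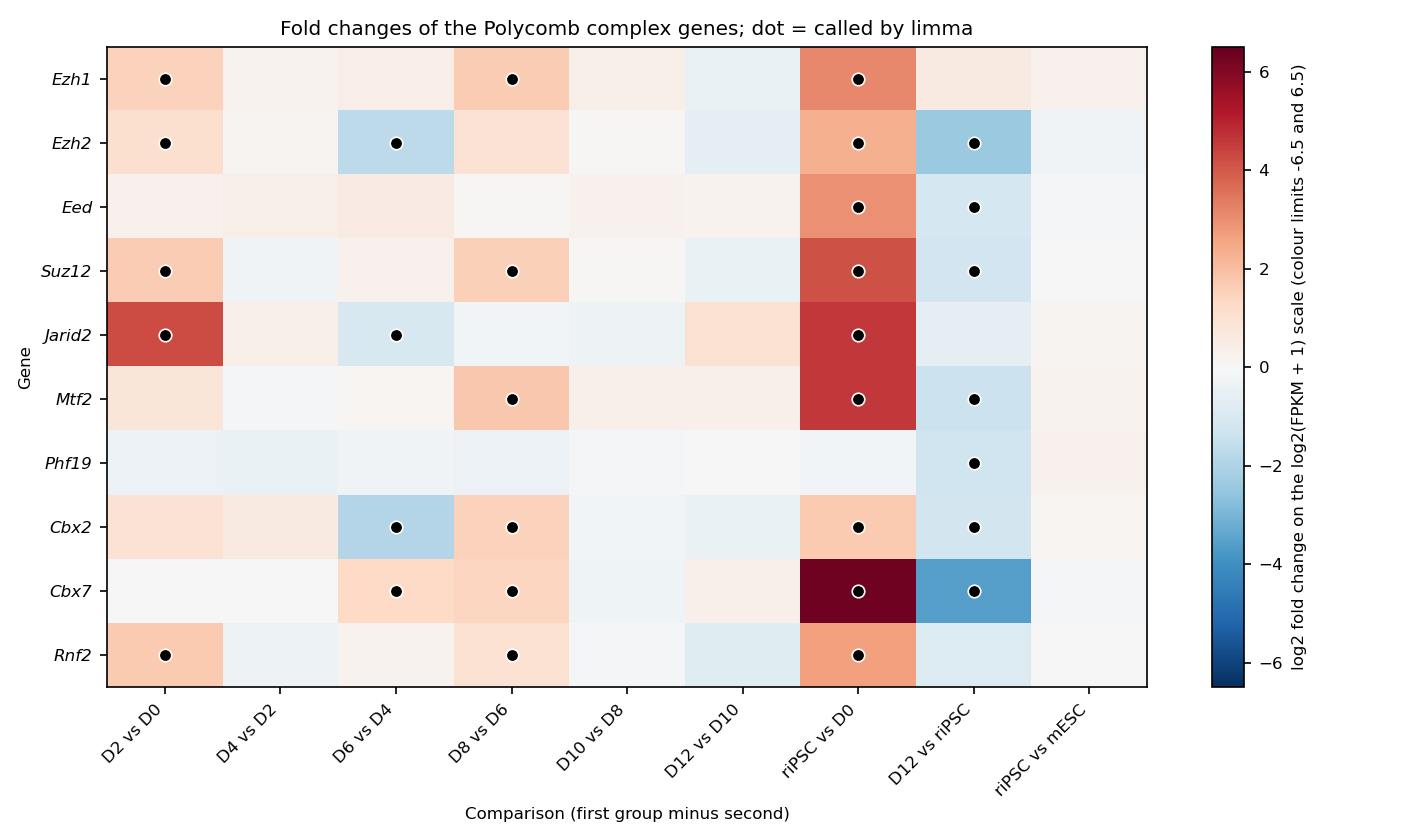
Log2 fold change on the log2(FPKM + 1) scale (colour, red higher and blue lower in the first group of each comparison) of the 10 Polycomb genes (rows) in 9 comparisons (columns), with a dot where limma called the gene. Dots are found for 6 genes at D8 against D6, for 7 at D12 against riPSC and for none at D4 against D2, D10 against D8, D12 against D10 or riPSC against mESC.

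Other Polycomb genes were tested in the same fit. Of 14 variant PRC1 subunits, which lack CBX proteins, 10 rose in riPSC against D0, where 40.1% of all genes rose, with 4 of the largest in Pcgf6 (4.11), Mga (3.26), Kdm2b (3.19), the subunit that binds CpG islands, and Rybp (3.13). At D8 against D6, 6 of the 14 rose, against 15.1% of all genes, among them Kdm2b (17.4 FPKM at D8 and 3.13 FPKM at D6 on average, 2.15) and Pcgf5 (1.41). At D12 against riPSC 3 were lower and 1 higher, where 19.8% of all genes were lower and 16.7% higher. These were Pcgf6 (-1.72), L3mbtl2 (-1.62) and Auts2 (-1.61), and E2f6 (1.21). At D2 against D0, 8 of the 14 were called higher, against 19.5% of all genes, with Pcgf3 (1.69) and Rybp (1.55) first. As for the members, both counts against D0 include the shortage of signal in long genes at D0. The D2 count also rests on columns that were not independent.

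Of the 7 other PRC2 genes tested, 1 was called at D12 against riPSC, the histone chaperone Rbbp4 (-1.49), where 36.5% of all genes were called. At D8 against D6 Epop, a cofactor that joins PRC2 to elongin, rose to 176 FPKM on average at D8, against 20.8 FPKM at D6 (3.02), and the histone chaperone Rbbp7 rose to 257 FPKM at D8, against 62.9 FPKM at D6 (2.02). Epop also differed at D4 against D2 (2.01) and at D6 against D4 (-1.38). Of 10 other canonical PRC1 genes, 4 were higher and 2 lower at D12 against riPSC, where 16.7% of all genes were higher and 19.8% lower. Phc2 (1.30), Cbx8, Ring1 (1.07) and Bmi1 (1.02) were higher, and Phc1 and Cbx6 (-1.02) lower.

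The enzymes that remove the 2 Polycomb marks, with their cofactors, were tested as 5 genes. All 5 were higher in riPSC against D0, where 40.1% of all genes were higher and long genes were short of signal at D0: the demethylases Kdm6a (2.64) and Kdm6b (2.57), the deubiquitinase Bap1 (1.55) and its cofactors Asxl1 (1.99) and Asxl2 (3.78). At D12 against riPSC none of the 5 was called by limma (2, Kdm6b and Asxl1, had an unadjusted p under 0.05). Kdm6a averaged 10.9 ± 1.55 FPKM at D12 and 8.00 ± 0.146 FPKM in riPSC (SD, n = 2 each).

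Genes known as Polycomb targets were also tested. Of 27, 8 were higher and 2 lower at D12 against riPSC, where 16.7% of all genes were higher and 19.8% lower, led by the endoderm factors Sox17 (6.21), Gata4 (5.87), Gata6 (5.80) and Foxa2 (4.38). Sox17 averaged 106 FPKM at D12 and 0.446 FPKM in riPSC. In riPSC against D0, 8 were lower and 5 higher, where 13% of all genes were lower and 40.1% higher. Cdkn2b, a cell cycle inhibitor, was the lowest (-3.20), followed by Hoxc9 (-2.52), while Olig2 and Eomes (2.12) were higher. Olig2 averaged 11.9 FPKM in riPSC and was listed at 0 in both libraries of D0 and of mESC. At D6 against D4, where 6.86% of all genes fell and 11.6% rose, 5 fell, all of them Hox genes with Hoxa5 (-2.36) first. The 3 that rose were Cdkn2b (1.80), Gata4 and also a Hox gene, Hoxc13. Hoxc13 averaged 0.400 FPKM at D4 and 3.63 FPKM at D6. Cdkn2a, which shares its locus with Cdkn2b, averaged 157 FPKM at D6 and then fell at D8 against D6 (-2.24). Extraembryonic endoderm markers share Gata4, Gata6, Sox17 and Foxa2 with this list, so the counts of both lists rest in part on the same genes.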

How the data were processed

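Per the submitters' processing notes, the authors' tools included fastp 0.20.1, HISAT2 2.2.1 and StringTie 2.0 with build mm10. The deposited values are FPKM per gene, 1 file per library. The annotation release and strand setting are not given in the sources used here. Symbols, coordinates and exonic lengths came from GENCODE annotation of GRCm38, in which 55141 of 55401 identifiers had a symbol. Values were taken as log2(FPKM + 1), and 16439 genes with at least 1 FPKM in at least 2 libraries were fitted with limma 3.58.1 (R 4.3.3), using all 18 libraries and a mean for each of the 9 groups, which left 9 residual degrees of freedom, eBayes without a trend, two-sided, Benjamini-Hochberg over all genes tested. The script was tested on simulated data. The 10 members and all gene lists were chosen with earlier results of these data known. Genes named from a list are up to 4 called ones per comparison with the largest change, and genes of like course are the 3 of highest Pearson r among 15331 whose group means spanned at least 1 (log2). Bmi1, Cbx6, Bap1, Cdkn2a and the overlapping Apobec3 were named after their values were seen. So were the single fibroblast and pluripotency markers and, other than Pcna, the genes named from the cell cycle list. Some genes are not reported here, and list counts and family shares leave out 1 of them. Depth was estimated from the step of 1 read in single-exon genes, searched within a preset range, so a depth outside that range could not be found. Promoter windows came from RefSeq (GRCm38.p6). Alternatives covered pseudocount, filter, scaling, length trend, spread, fold threshold, replicate block and leaving out each library.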

Additional observations from a re-analysis of the deposited data

How the results depend on the processing

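No called difference of a member changed direction under any alternative run. At D2 against D0, where 5 members were called, 2 were called with a pseudocount of 5 or with quantile normalization, 3 with the length trend removed, and 0 in a fit of only the libraries compared, in which 88 genes in all were called, against 3965. Leaving out 1 library gave 3 to 7 there, the 3 without the first D2 column. A pseudocount of 5 left 1 of 4 calls at D6 against D4 and 3 of 6 at D8 against D6. At D12 against D10, where 0 were called, 1 was called with median-of-ratios scaling, quantile normalization or the length trend removed (Jarid2, higher), 1 with mitochondrial genes left out of the sum (Rnf2, lower) and 4 with no fold threshold. At D4 against D2 the count of 0 became 1 with no fold threshold (Cbx2), and 0 to 1 when 1 library was left out (Jarid2, 1.03, without the first D2 column). The cause was not tested. Over all genes, a pseudocount of 5 called 124 to 4817 genes per comparison, against 470 to 8729.

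Replicate numbers did not pair the samples: deviations of same-numbered libraries correlated at -0.227 to 0.266 over 36 group pairs, above 0.1 in 5. With the number as a replicate block, the counts of members called stayed at 5, 0, 4, 6, 0, 0, 9, 7 and 0 in the order of the comparisons above. Treating the D2 columns as 1 sample or leaving them out, both chosen after seeing the data, changed no member's call. With FPKM only, counting error could not be modelled, and values of Phf19 and Cbx7 under 0.2 FPKM rest on few reads.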
